A study of Mus musculus with 3 samples.

Results

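Irf1, Irf2, Irf3, Irf5, Irf7 and Irf9 encode interferon regulatory factors (IRFs), and Stat2, Stat3 and Stat4 encode signal transducers and activators of transcription (STATs). These 9 genes, of the 32285 counted in each library, were chosen by name as transcription factors of the interferon response, and all 9 were found in the count matrices of all 3 libraries. Dendritic cells of 3 kinds (cDC1s, cDC2s and pre-cDCs) had been sorted from a transplanted mouse fibrosarcoma, MCA205 LA-OVA, which carries the model antigen OVA, and were sequenced together as single cells. Tumours grew on both flanks of mice on the C57BL/6J background and were taken on day 5, from males and females 6 to 20 weeks old. The WT mice were the reference, the sGSN-/- mice lacked secreted gelsolin, and the sGSN-/-Clec9a-/- mice also lacked Clec9a, which encodes the receptor DNGR-1. No treatment beside the tumour is recorded for any group. All tumours of a genotype were pooled into 1 library, the pools differed in their mix of sexes, and no genotype has a replicate library.

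Each captured transcript carried a unique molecular identifier (UMI), and levels are given as counts of a gene per 1000000 UMIs of a library or cluster (CPM). The WT library held 176578136 UMIs over 12763 barcodes, of which 2316 are deposited cDC1s with 32676177 UMIs. The sGSN-/- library held 109270958 UMIs over 8173 barcodes, with 1712 cDC1s and 23563047 UMIs in them. The sGSN-/-Clec9a-/- library held 113411930 UMIs over 9273 barcodes, with 1778 cDC1s and 21473550 UMIs in them. The WT library was the deepest, and all 3 gave cDC1s of a similar depth, with medians of 14092, 14150.0 and 12231 UMIs a cell. Of all barcode sequences, 81 occurred in more than 1 library, 7 of them among cDC1s. Clec9a stood at 168 and 168 CPM in the cDC1s of the WT and sGSN-/- libraries and at 0.0931 CPM in those of the sGSN-/-Clec9a-/- library. The loss of secreted gelsolin was not checked, since the counts do not tell the secreted form of Gsn from the other.

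Interferon receptors signal through Janus kinases to STATs, and STAT2 joins a further STAT and IRF9 in the complex ISGF3, which binds interferon-stimulated response elements after type I or type III interferon. IRF3, IRF5 and IRF7 act a step earlier: sensors of nucleic acids activate them and they switch on interferon genes, while IRF1 drives many genes induced by interferon gamma and IRF2 binds the same elements and can counteract it. STAT3 carries signals of IL-10, IL-6 and Flt3 ligand and STAT4 those of IL-12 and type I interferon, and in tumours cDC1s that respond to interferons and produce IL-12 and chemokines support T cell responses.

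The 5806 deposited cDC1s fall into 12 clusters. Clusters 5, 2, 3, 6 and 0 form the resting group of cDC1s (3499 cells), and clusters 4 and 1 the early group (1332 cells). Clusters 7 (422 cells), 8 (255), 9 (162) and 10 (76) are the activated ones and were compared singly. The study describes them by interferon-stimulated genes, by Ccr7 and Il12b, by Nfkbiz, Dusp2 and Tnfaip3 and by Cxcl9 with Cxcl10, in that order. Cluster 11, rich in mitochondrial transcripts and in the study's words likely dying cells, held 60 cells and was left out of the comparisons. As a check of the cell type, 5 cDC1 markers (Xcr1, Clec9a, Cadm1, Itgae and Wdfy4) summed to 1146 CPM in the resting clusters and to 1029, 503, 1195 and 878 CPM in clusters 7, 8, 9 and 10. All 5 were detected in each of these clusters, at the lowest summed level of these groups in cluster 8. The 5 cDC2 markers (Itgam, Sirpa, Cd209a, Mgl2 and Clec10a) summed to 23.9, 21.5 and 21.97 CPM in the 3 libraries (WT, sGSN-/-, sGSN-/-Clec9a-/-) of the resting clusters. Their sums were 156, 127 and 151 CPM in the early clusters and 138, 506 and 100.4 CPM in cluster 10. Cluster 7 held 39.03, 31.3 and 30.8 CPM of them and cluster 9 held 43.2, 36.05 and 45.9 CPM. In cluster 10 the cDC2 sum was mostly Cd209a (215 against 4.21 CPM in resting clusters), and Mgl2 (20.2 against 7.13), Clec10a (8.98 against 5.19), Itgam (6.73 against 4.63) and Sirpa (2.24 against 1.52) were also higher, Itgam and Sirpa from only 6 and 2 UMIs there. In the early clusters Cd209a stood at 79.99 CPM, Itgam at 21.7 and Sirpa at 7.10. Whether the changes of members there come from the cells that hold these markers was not tested, since the cells called mixed below were not chosen by cDC2 or pre-cDC markers.

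Values of single libraries are given below in the order WT, sGSN-/-, sGSN-/-Clec9a-/-, and a mean is followed by its SD over the 3 libraries (n = 3). Raw UMIs were summed per library and group of clusters, and differences were tested with the edgeR quasi-likelihood test over the 8536 genes that passed a filter on low counts, all 9 members among them. A gene is called where its p adjusted by Benjamini-Hochberg (BH) is at most 0.05, and each log2 fold change (log2FC) is followed by its standard error and that BH-adjusted edgeR p. The clusters had been drawn on these same counts, so an adjusted p describes how alike the libraries are and is no test that a cluster exists. The 3 libraries differ in genotype, so the SD includes differences between genotypes.

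**Figure D1:**
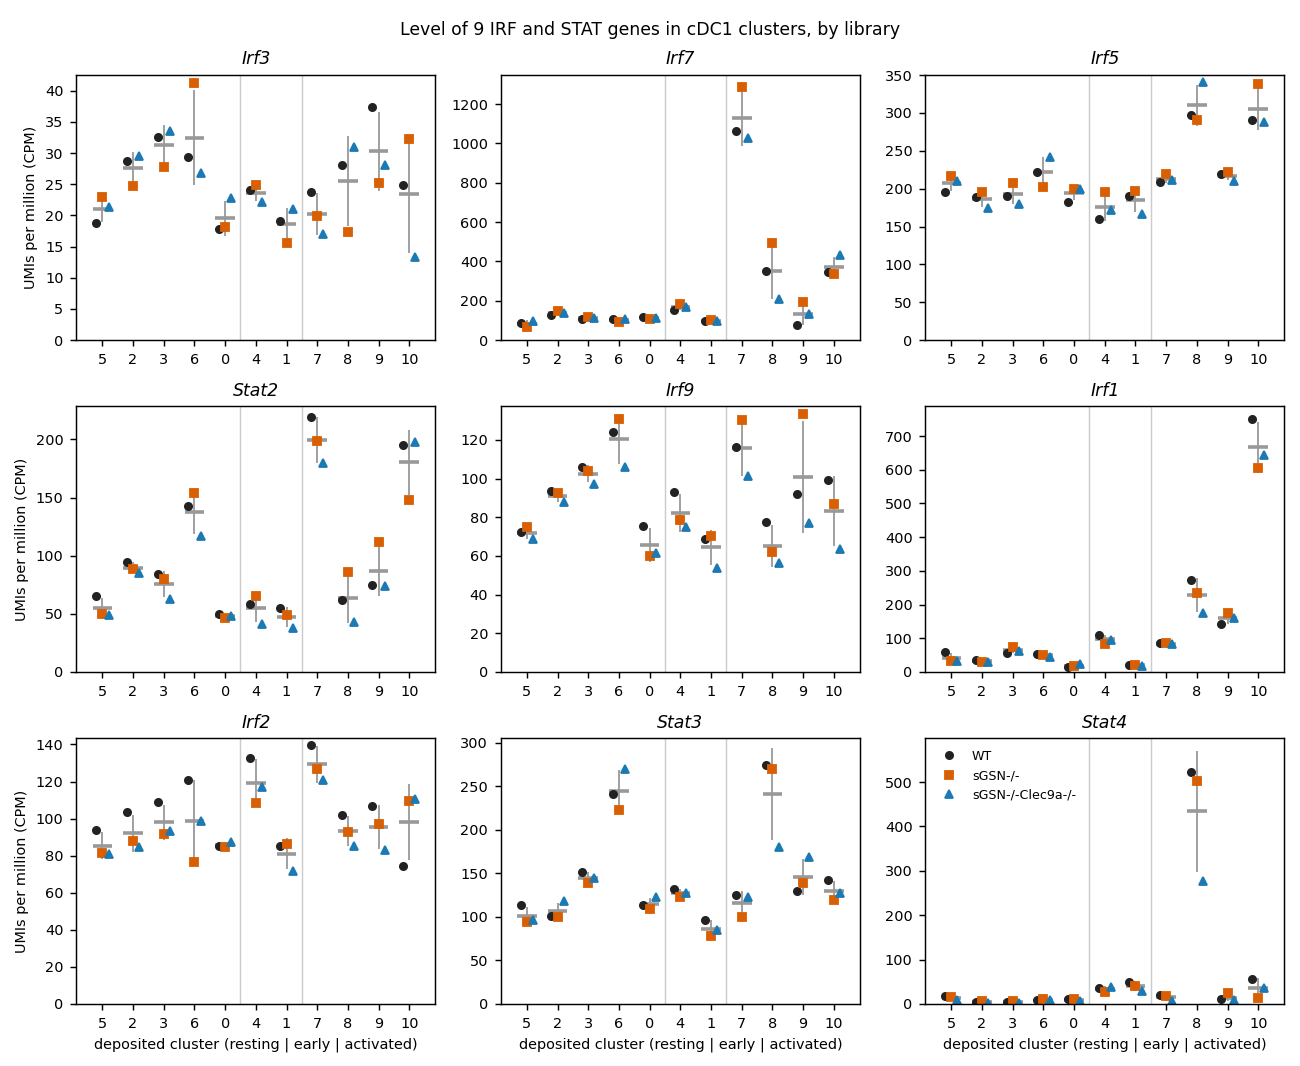
Level of each member (CPM, linear axis from 0, own scale per gene) in clusters 0 to 10, ordered as resting, early and activated. Each marker is 1 library and each bar the mean of 3. Irf7 is highest in cluster 7 (mean 1128 CPM), Irf1 in cluster 10 (667 CPM) and Stat4 in cluster 8 (434 CPM), each above every other cluster in all 3 libraries.

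The first question is how many of the 9 members differed between activated and resting cDC1s, beside the share of all tested genes that did. The members were chosen with earlier results of these data known. A share above the background, here or between activated clusters, is therefore a description and not independent evidence. In cluster 7, 6 of 9 members were called, all higher, where 17.9% of genes were called in either direction and 11.8% were higher. In cluster 8, 5 of 9 were called, all higher, against 49.7% in either direction and 25.7% higher. In cluster 9, 1 of 9 was called, higher, against 5.32% in either direction and 3.99% higher. The share of members was far above the background in cluster 7, close to the share of genes called in either direction in cluster 8, and rested on a single gene, Irf1, in cluster 9. A share near the background, as in cluster 8, is not a result about the members, although all 5 calls there were in the same direction. In cluster 10, 5 of 9 members were called, all higher, against 15.1% in either direction and 8.53% higher. In the early clusters, 5 of 9 were called, 2 higher and 3 lower, against 34.2% in either direction, 16.1% higher and 18.1% lower. Stat4 is 1 of the calls in clusters 7 and 10, where it was not stable, as given below, so those counts hold 5 and 4 members without it. Cluster 10 thus stood above its background, and the early clusters held somewhat more calls than theirs, in both directions. The early count fell to 2 without the WT library and to 3 without the sGSN-/- library.

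Between activated clusters, 5 of 9 members were called for cluster 7 against cluster 10 (9.83% of genes), 3 of them higher in cluster 7. That count fell to 2 without the WT library, to 2 without the sGSN-/- library and to 2 without the sGSN-/-Clec9a-/- library, and Irf1 and Irf7 were the ones called in all 3. For cluster 7 against cluster 8, 8 of 9 members were called (45.5% of genes), with Irf3 the exception. For cluster 7 against cluster 9, 4 of 9 were called (18.9% of genes). With cluster 8 against cluster 10, 4 of 9 were called (28.2% of genes). Members were called more often than genes at large in these 4 comparisons, least so for cluster 8 against cluster 10. For cluster 8 against cluster 9, 5 of 9 were called (36.9% of genes), and for cluster 9 against cluster 10, 4 of 9 (15.0% of genes). Irf3 was called in none of the 10 comparisons that involve an activated cluster (unadjusted p from 0.029 to 0.8 by edgeR), and DESeq2 called it in none either, whereas Irf1 was called in all of them.

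The background itself depends on the libraries kept. Without the WT library the genes called against resting fell from 1525 to 861 in cluster 7, from 454 to 225 in cluster 9, from 1285 to 759 in cluster 10 and from 2919 to 1505 in the early clusters. Without the sGSN-/- library they fell to 847, 221, 767 and 1908. Between activated clusters, calls without the WT library fell from 839 to 424 for 7 against 10, from 1615 to 887 for 7 against 9 and from 1280 to 709 for 9 against 10. Fewer libraries thus gave fewer calls in each of these comparisons. Without the sGSN-/- library the same 3 counts fell to 409, 969 and 794, and that for 8 against 10 fell from 2408 to 1581.

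Scaling moves the balance of directions over all genes. Without the trimmed mean (TMM) factors the median log2FC of the 8536 genes shifted by -0.10 for cluster 7 and -0.19 for cluster 8 against resting, by -0.12 for cluster 7 against cluster 10, by -0.20 for cluster 8 against cluster 10 and by -0.18 for cluster 8 against cluster 9. Of the genes called for cluster 7 against resting, 65.8% were higher with TMM factors and 45.4% without. For cluster 8 against resting these shares were 51.7% and 37.1%, and for cluster 8 against cluster 9 they were 54.0% and 38.9%. The split of all calls into higher and lower is therefore not settled in these comparisons, whereas no called member changed sign under either scaling. For cluster 7 against cluster 10 the higher share was 61.6% with TMM factors, 44.7% without and 47.8% with DESeq2. It was 55.7% with and 37.2% without them for cluster 8 against cluster 10, and 60.4% and 47.8% for cluster 7 against cluster 9. For cluster 10 against resting it was 56.7% and, with DESeq2, 69.5%.

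Irf7 (ENSMUSG00000025498, chromosome 7, 141262706 to 141266481, minus strand of the GRCm38 build) encodes the factor that amplifies type I interferon production and is itself an interferon-stimulated gene. Its level in the 3 libraries was 113, 111 and 116 CPM in the resting clusters and 1064, 1289.6 and 1029.9 CPM in cluster 7. In cluster 10 it was 344, 335 and 432 CPM, and in cluster 8 it was 353, 493 and 209.6 CPM. Every library stood far higher in cluster 7 than in any other cluster, and clusters 10 and 8 lay above resting in all 3, with cluster 8 spread widely between libraries. In cluster 9 the libraries gave 77.8, 193 and 132 CPM, the WT value below its resting value and the other 2 above theirs. The means were 1128 ± 141 CPM in cluster 7, 370.2 ± 53.5 in cluster 10, 352 ± 142 in cluster 8, 134 ± 57.6 in cluster 9 and 113 ± 2.37 in the resting clusters. From highest to lowest the clusters ran 7, 10, 8, 4, 2, 9, 0, 3, 6, 1, 5, where the ranges of mean ± SD did not overlap between clusters 7 and 10, 8 and 4, and 4 and 2, and overlapped between all other neighbours.

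Against resting, Irf7 rose in cluster 7 (log2FC 3.42 ± 0.20, adjusted p = 4.4e-13, higher in 3 of 3 libraries), in cluster 8 (1.87 ± 0.20, adjusted p = 1.6e-08, higher in 3 of 3 libraries) and in cluster 10 (1.70 ± 0.23, adjusted p = 4.9e-06, higher in 3 of 3 libraries). In cluster 9 (0.19 ± 0.23, adjusted p = 0.77, higher in 2 of 3 libraries) and in the early clusters (0.12 ± 0.19, adjusted p = 0.68, higher in 3 of 3 libraries) it was not called. Its level in cluster 7 exceeded that in cluster 10 (1.72 ± 0.22, adjusted p = 4.1e-06, higher in 3 of 3 libraries), in cluster 8 (1.55 ± 0.20, adjusted p = 4.2e-07, higher in 3 of 3 libraries) and in cluster 9 (3.23 ± 0.23, adjusted p = 5.7e-11, higher in 3 of 3 libraries). Irf7 thus separated cluster 7 from each other activated cluster. It was higher in cluster 8 than in cluster 9 (1.69 ± 0.24, adjusted p = 2.3e-06, higher in 3 of 3 libraries), and cluster 9 lay below cluster 10 (-1.51 ± 0.26, adjusted p = 0.00017, higher in 0 of 3 libraries). Cluster 8 against cluster 10 was not called (0.18 ± 0.23, adjusted p = 0.62, higher in 2 of 3 libraries), and that sign turned without TMM factors and without the sGSN-/- library.

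Irf3 (ENSMUSG00000003184, chromosome 7, 44997648 to 45002848, plus strand) encodes the constitutive partner of IRF7 downstream of nucleic acid sensors. In resting clusters it stood at 24.996, 24.01 and 26.8 CPM, in cluster 7 at 23.7, 19.9 and 17.1 CPM, and cluster 8 held 28.1, 17.3 and 31.05 CPM. Cluster 9 held 37.5, 25.2 and 28.1 CPM, and cluster 10 held 24.8, 32.2 and 13.4 CPM. The values of cluster 10 came from only 21 UMIs over all libraries together. The libraries of each activated cluster other than cluster 7 overlapped those of the resting clusters, and those of cluster 7 all lay below them. Means of clusters 0 to 10 ran from 18.6 ± 2.69 CPM in cluster 1 to 32.5 ± 7.66 in cluster 6 (order 6, 3, 9, 2, 8, 4, 10, 5, 7, 0, 1), and all neighbours in that order overlapped. The log2FC against resting was -0.21 in cluster 7, 0.11 in cluster 8, 0.33 in cluster 9 and -0.12 in cluster 10, none of them called. The sign in cluster 8 turned without TMM factors. In cluster 10 the value ran from -1.75 to 0.21 over all alternatives. In the early clusters, at 20.9, 18.8 and 21.4 CPM, Irf3 fell (-0.31 ± 0.12, adjusted p = 0.048, higher in 0 of 3 libraries), a call that was lost without the WT (-0.34), the sGSN-/- (-0.29) or the sGSN-/-Clec9a-/- library (-0.30), with DESeq2 (-0.31), without TMM factors (-0.31), with thinned cells (-0.24) and without mixed cells (-0.31).

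Irf5 (ENSMUSG00000029771, chromosome 6, 29526625 to 29541871, plus strand) encodes the IRF that Toll-like receptors activate through MyD88 and that drives inflammatory cytokines, IL-12 among them. Resting clusters gave 191, 203 and 196 CPM, cluster 8 gave 297, 291 and 342 CPM and cluster 10 gave 291, 338 and 288 CPM. Cluster 7 gave 209, 219 and 211 CPM and cluster 9 gave 219.9, 222 and 210.2 CPM. Clusters 8 and 10 lay above resting in all libraries without overlap, and clusters 7 and 9 also lay above it without overlap, by little. The means were 310.1 ± 27.4 CPM in cluster 8, 306 ± 28.4 in cluster 10, 217 ± 6.20 in cluster 9, 213 ± 5.02 in cluster 7 and 197 ± 5.91 in resting clusters. The order was 8, 10, 6, 9, 7, 5, 0, 3, 2, 1, 4, with a gap beyond the SD only between clusters 10 and 6. Irf5 rose in cluster 8 (log2FC 0.83 ± 0.10, adjusted p = 5.8e-08, higher in 3 of 3 libraries) and in cluster 10 (0.62 ± 0.11, adjusted p = 0.00027, higher in 3 of 3 libraries), and the second call was lost when cells were thinned to equal depth (0.51). In cluster 7 it was not called (0.22 ± 0.09, adjusted p = 0.11, higher in 3 of 3 libraries), but it was with the library as a block (0.22, adjusted p = 0.046) and with DESeq2 (0.21), the adjusted p over all alternatives ranging from 0.021 to 0.45.

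Among activated clusters, Irf5 was higher in cluster 8 than in cluster 9 (0.68 ± 0.11, adjusted p = 1.4e-05, higher in 3 of 3 libraries) and lower in cluster 7 than in cluster 8 (-0.62 ± 0.10, adjusted p = 1.4e-05, higher in 0 of 3 libraries). It was lower in cluster 7 than in cluster 10 (-0.40 ± 0.12, adjusted p = 0.024, higher in 0 of 3 libraries) and in cluster 9 than in cluster 10 (-0.47 ± 0.12, adjusted p = 0.0093, higher in 0 of 3 libraries). Clusters 8 and 10 therefore held more Irf5 than clusters 7 and 9, with less certainty for cluster 10. The call for 7 against 10 was lost without the WT (-0.47), the sGSN-/- (-0.33) or the sGSN-/-Clec9a-/- library (-0.44), and that for 9 against 10 without the sGSN-/- (-0.38) or the sGSN-/-Clec9a-/- library (-0.46). Both were also lost without the filter on low counts (-0.34 and -0.41) and with thinned cells (-0.34 and -0.49). Clusters 8 and 10 (0.22) and clusters 7 and 9 (0.06, of the other sign without TMM factors) were not told apart by the test. In cluster 9 (0.15) and in the early clusters (-0.12) Irf5 was not called against resting.

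Stat2 (ENSMUSG00000040033, chromosome 10, 128270559 to 128292849, plus strand) encodes the STAT that is specific to the ISGF3 complex. In resting clusters it stood at 79.5, 70.9 and 68.2 CPM, in cluster 7 at 219, 199 and 180.1 CPM and in cluster 10 at 195, 148 and 197 CPM. In cluster 8 it stood at 62.004, 85.8 and 42.7 CPM and in cluster 9 at 74.9, 112 and 74.01 CPM. Clusters 7 and 10 were high in every library, without overlap with resting, while the libraries of clusters 8 and 9 lay on both sides of it, sGSN-/- highest in each. The means were 199 ± 19.6 CPM in cluster 7, 180.2 ± 27.7 in cluster 10, 86.9 ± 21.5 in cluster 9, 63.5 ± 21.6 in cluster 8 and 72.9 ± 5.91 in resting clusters, and cluster 6 within the resting ones reached 138 ± 18.95. The order was 7, 10, 6, 2, 9, 3, 8, 4, 5, 0, 1, and clusters 6 and 2 were the only neighbours whose ranges of mean ± SD did not overlap.

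Stat2 rose against resting in cluster 7 (log2FC 1.55 ± 0.13, adjusted p = 4.5e-10, higher in 3 of 3 libraries) and in cluster 10 (1.28 ± 0.19, adjusted p = 1.4e-05, higher in 3 of 3 libraries) and fell in the early clusters (-0.54 ± 0.13, adjusted p = 0.0024, higher in 0 of 3 libraries). It was not called in cluster 9 (0.22 ± 0.17, adjusted p = 0.57, higher in 2 of 3 libraries) or in cluster 8 (0.08 ± 0.17, adjusted p = 0.7, higher in 1 of 3 libraries), where the sign turned without TMM factors and without the sGSN-/- library. Clusters 7 and 10 were not told apart (0.27 ± 0.18, adjusted p = 0.42, higher in 2 of 3 libraries). Stat2 was thus shared by clusters 7 and 10, unlike Irf7 and Irf1, which separated them. It was higher in cluster 7 than in cluster 8 (1.47 ± 0.17, adjusted p = 5.7e-08, higher in 3 of 3 libraries) and than in cluster 9 (1.33 ± 0.17, adjusted p = 1.5e-06, higher in 3 of 3 libraries), and lower in cluster 8 than in cluster 10 (-1.20 ± 0.21, adjusted p = 0.0001, higher in 0 of 3 libraries). It was also lower in cluster 9 than in cluster 10 (-1.06 ± 0.21, adjusted p = 0.00093, higher in 0 of 3 libraries), a call lost without the WT library (-0.93), and not called for cluster 8 against cluster 9 (-0.14).

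Irf9 (ENSMUSG00000002325, chromosome 14, 55603571 to 55610030, plus strand), which overlaps Rnf31 on the same strand in the annotation, encodes the subunit that binds DNA in ISGF3. Resting clusters held 90.9, 83.6 and 80.8 CPM of it, cluster 7 held 116, 130.2 and 101 CPM, and cluster 8 held 77.5, 62.2 and 56.3 CPM. Cluster 9 held 92.2, 133 and 76.97 CPM, and cluster 10 held 99.2, 87.0002 and 63.6 CPM. Cluster 7 lay above resting and cluster 8 below it in all libraries without overlap, and clusters 9 and 10 overlapped it. Means of clusters 0 to 10 ran from 64.4 ± 8.99 CPM in cluster 1 to 120.3 ± 12.7 in cluster 6, with 116 ± 14.4 in cluster 7 (order 6, 7, 3, 9, 2, 10, 4, 5, 0, 8, 1), and all neighbours overlapped. Irf9 rose in cluster 7 (log2FC 0.55 ± 0.11, adjusted p = 0.00083, higher in 3 of 3 libraries), a call lost without the sGSN-/- library (0.43). It was not called in cluster 8 (-0.17 ± 0.15, adjusted p = 0.35, higher in 0 of 3 libraries), cluster 9 (0.22) or cluster 10 (-0.05). In the early clusters (-0.26 ± 0.11, adjusted p = 0.062, higher in 0 of 3 libraries) it was called without the filter on low counts (-0.29), without mixed cells (-0.28) and with the library as a block (-0.27, adjusted p = 0.013), the adjusted p over all alternatives ranging from 0.013 to 0.23. The range of Irf9 over the clusters was thus narrow beside that of Stat2, although both encode subunits of 1 complex. Irf9 was higher in cluster 7 than in cluster 8 (0.72 ± 0.15, adjusted p = 0.00035, higher in 3 of 3 libraries; with thinned cells 0.39 and not called) and than in cluster 10 (0.60 ± 0.19, adjusted p = 0.048, higher in 3 of 3 libraries), the second lost without the WT (0.69), sGSN-/- (0.56) or sGSN-/-Clec9a-/- library (0.53), with DESeq2 (0.56), without TMM factors (0.49), with thinned cells (0.61) and without mixed cells (0.58). The remaining pairs, 8 against 10 (-0.11), 8 against 9 (-0.39), 7 against 9 (0.33) and 9 against 10 (0.28), were not called, though the second was without TMM factors (-0.57) and without the filter on low counts (-0.47).

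Irf1 (ENSMUSG00000018899, chromosome 11, 53770014 to 53778374, plus strand) encodes an activator that interferon gamma and NF-kB induce and that the study itself names for these cells, so that its direction here is not independent evidence. Resting clusters held 39.2, 36.2 and 35.8 CPM and cluster 10 held 751, 606 and 643 CPM. Cluster 8 held 274, 234 and 175 CPM, cluster 9 held 142, 175 and 159.9 CPM and cluster 7 held 85.5, 85.7 and 82.1 CPM. All libraries of all 4 activated clusters exceeded all resting libraries, and cluster 10 stood apart from the other 3 in each library. The means were 667 ± 75.6 CPM in cluster 10, 228 ± 50.1 in cluster 8, 159 ± 16.4 in cluster 9, 84.4 ± 2.05 in cluster 7 and 37.1 ± 1.89 in resting clusters. Cluster 4 reached 96.7 ± 13.7 CPM and cluster 1, the other early cluster, 20.3 ± 2.01. In every library cluster 4 lay above the resting value and cluster 1 below it. A value for the early clusters together therefore averages over both. The order was 10, 8, 9, 4, 7, 3, 6, 5, 2, 1, 0, and 4 of 10 pairs of neighbours overlapped in mean ± SD, namely 4 with 7, 6 with 5, 5 with 2 and 1 with 0.

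Irf1 rose against resting in cluster 10 (log2FC 4.14 ± 0.13, adjusted p = 2.4e-18, higher in 3 of 3 libraries), in cluster 8 (2.84 ± 0.12, adjusted p = 1.5e-16, higher in 3 of 3 libraries) and in cluster 9 (2.09 ± 0.13, adjusted p = 6.4e-12, higher in 3 of 3 libraries). It rose less in cluster 7 (1.29 ± 0.12, adjusted p = 4.5e-09, higher in 3 of 3 libraries) and in the early clusters (0.38 ± 0.11, adjusted p = 0.012, higher in 3 of 3 libraries), the last call being lost without the WT library (0.31). Cluster 10 exceeded each of the others, with a log2FC of cluster 7 against cluster 10 of -2.86 ± 0.13, adjusted p = 4.4e-14, higher in 0 of 3 libraries. Cluster 8 against cluster 10 gave -1.31 ± 0.13, adjusted p = 9.3e-09, higher in 0 of 3 libraries, and cluster 9 against cluster 10 gave -2.05 ± 0.13, adjusted p = 3.9e-11, higher in 0 of 3 libraries. The clusters were therefore graded, with cluster 10 first and cluster 7 last. It was higher in cluster 8 than in cluster 9 (0.74 ± 0.13, adjusted p = 6.8e-05, higher in 3 of 3 libraries), although the ranges of their libraries overlapped. Cluster 7 lay below cluster 9 (-0.80 ± 0.14, adjusted p = 9.2e-05, higher in 0 of 3 libraries) and below cluster 8 (-1.55 ± 0.13, adjusted p = 1.4e-10, higher in 0 of 3 libraries).

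Irf2 (ENSMUSG00000031627, chromosome 8, 46739732 to 46847458, plus strand) encodes the factor that competes with IRF1 for its elements. It stood at 99.6, 85.6 and 88.3 CPM in resting clusters and at 139.9, 127 and 121 CPM in cluster 7. In cluster 8 it stood at 102, 92.9 and 85.4 CPM, in cluster 9 at 107, 97.3 and 82.9 CPM and in cluster 10 at 74.4, 109.6 and 110.5 CPM. All libraries of cluster 7 exceeded all resting libraries, and the other 3 activated clusters overlapped them. Over clusters 0 to 10 the means ran from 81.1 ± 8.15 CPM in cluster 1 to 129 ± 9.74 in cluster 7 (order 7, 4, 6, 10, 3, 9, 8, 2, 0, 5, 1), and all neighbours overlapped. Irf2 rose in cluster 7 (log2FC 0.61 ± 0.10, adjusted p = 5.9e-05, higher in 3 of 3 libraries) and was not called in cluster 8 (0.24 ± 0.12, adjusted p = 0.1, higher in 2 of 3 libraries), where DESeq2 (0.30) and thinned cells (0.49) gave a call. In cluster 9 (0.09), cluster 10 (0.10) and the early clusters (0.06) it was not called. Irf2 thus moved by less than Irf1 in each activated cluster, and in cluster 7 alone past the threshold.

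Irf2 was higher in cluster 7 than in cluster 9 (0.51 ± 0.13, adjusted p = 0.0054, higher in 3 of 3 libraries), which was lost without the sGSN-/- (0.52) or the sGSN-/-Clec9a-/- library (0.44). It was higher in cluster 7 than in cluster 8 (0.37 ± 0.13, adjusted p = 0.019, higher in 3 of 3 libraries), which was lost without the WT (0.32), the sGSN-/- (0.38) or the sGSN-/-Clec9a-/- library (0.31). It was also higher in cluster 7 than in cluster 10 (0.51 ± 0.16, adjusted p = 0.048, higher in 3 of 3 libraries), which was lost without the WT (0.24), the sGSN-/- (0.61) or the sGSN-/-Clec9a-/- library (0.65). With cells thinned to equal depth the values were 0.33 for 7 against 9, 0.12 for 7 against 8 and 0.05 for 7 against 10, none of them called. For 7 against 10 the call was also lost with DESeq2 (0.46), without TMM factors (0.39) and without mixed cells (0.47). The sign held in all of these, but none of the 3 calls was stable. The other pairs, 8 against 10 (0.14), 8 against 9 (0.15) and 9 against 10 (0.00), were not called, and the first 2 changed sign without TMM factors.

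Stat3 (ENSMUSG00000004040, chromosome 11, 100885098 to 100939540, minus strand) encodes the STAT of IL-10, IL-6 and Flt3 ligand signals. It stood at 131, 118 and 138 CPM in resting clusters and at 274, 269 and 180.5 CPM in cluster 8. In cluster 7 it stood at 125, 99.9 and 123 CPM, in cluster 9 at 129.6, 139 and 169 CPM and in cluster 10 at 142, 119 and 127 CPM. All libraries of cluster 8 exceeded all resting libraries, sGSN-/-Clec9a-/- by the least, and the other 3 activated clusters overlapped resting. The means were 244 ± 23.8 CPM in cluster 6, which is 1 of the resting clusters, 241 ± 52.7 in cluster 8, 146 ± 20.4 in cluster 9, 129 ± 11.4 in cluster 10, 116 ± 13.96 in cluster 7 and 129 ± 9.93 over resting clusters. The order was 6, 8, 9, 3, 10, 4, 7, 0, 2, 5, 1, with a gap beyond the SD only between clusters 8 and 9, so the high level of cluster 8 was shared with cluster 6. Stat3 rose in cluster 8 against resting (log2FC 1.12 ± 0.13, adjusted p = 3.5e-08, higher in 3 of 3 libraries), against cluster 9 (0.95 ± 0.15, adjusted p = 1.2e-05, higher in 3 of 3 libraries) and against cluster 10 (1.15 ± 0.18, adjusted p = 2.1e-05, higher in 3 of 3 libraries), and cluster 7 lay below cluster 8 (-1.18 ± 0.14, adjusted p = 7e-08, higher in 0 of 3 libraries). It fell in the early clusters (-0.36 ± 0.12, adjusted p = 0.019, higher in 0 of 3 libraries), a call lost without the WT (-0.41) or the sGSN-/- library (-0.36). Against resting it was not called in cluster 7 (-0.06), cluster 9 (0.17) or cluster 10 (-0.02, of the other sign with DESeq2). Nor was it called for 7 against 10 (-0.04), 7 against 9 (-0.23) or 9 against 10 (0.19).

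Stat4 (ENSMUSG00000062939, chromosome 1, 51987148 to 52107189, plus strand), which overlaps Gm28177 on the same strand in the annotation, encodes the STAT that IL-12 activates. The 3 libraries held 8.52, 9.74 and 5.83 CPM in resting clusters and 523, 501 and 278 CPM in cluster 8. The early clusters held 44.95, 35.4 and 32.4 CPM, cluster 10 held 56.7, 12.9 and 36.8 CPM, cluster 7 held 19.3, 18.5 and 6.27 CPM, and cluster 9 held 10.6, 23.4 and 8.88 CPM. Cluster 8 stood far above all other clusters in each library, lowest in sGSN-/-Clec9a-/-, and the early clusters lay above resting without overlap, while clusters 7 and 9 overlapped resting, and cluster 10 lay above it with a wide spread. The means were 434 ± 136 CPM in cluster 8, 39.99 ± 10.6 in cluster 1, 35.5 ± 21.9 in cluster 10, 33.3 ± 6.56 in cluster 4, 14.7 ± 7.29 in cluster 7, 14.3 ± 7.96 in cluster 9 and 8.03 ± 2.0004 in resting clusters. The order was 8, 1, 10, 4, 7, 9, 5, 0, 6, 3, 2, with gaps beyond the SD between clusters 8 and 1, 4 and 7, and 6 and 3. Counts in the smaller clusters were low, with 31 UMIs in cluster 10 and 30 in cluster 9.

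Stat4 rose against resting in cluster 8 (log2FC 5.98 ± 0.21, adjusted p = 3.5e-18, higher in 3 of 3 libraries) and in the early clusters (2.23 ± 0.21, adjusted p = 9.2e-09, higher in 3 of 3 libraries). It rose in cluster 10 (2.09 ± 0.55, adjusted p = 0.0092, higher in 3 of 3 libraries), a call lost without the WT library (1.70) and with thinned cells (1.46). It also passed the test in cluster 7 (1.01 ± 0.32, adjusted p = 0.03, higher in 3 of 3 libraries), and that call was lost without the WT (0.83) or the sGSN-/- library (0.97), with DESeq2 (0.98), without TMM factors (0.91), with thinned cells (0.70) and without mixed cells (0.92). Only the calls in cluster 8 and in the early clusters were kept under every alternative run. Stat4 was higher in cluster 8 than in cluster 9 (5.25 ± 0.32, adjusted p = 1.1e-12, higher in 3 of 3 libraries) and in cluster 10 (3.89 ± 0.34, adjusted p = 1.6e-09, higher in 3 of 3 libraries), and cluster 7 lay below cluster 8 (-4.97 ± 0.25, adjusted p = 9.8e-15, higher in 0 of 3 libraries). It was not called in cluster 9 against resting (0.73) or for 7 against 9 (0.28), and for 7 against 10 (-1.08) and 9 against 10 (-1.36) it was called only without the filter on low counts.

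**Figure D2:**
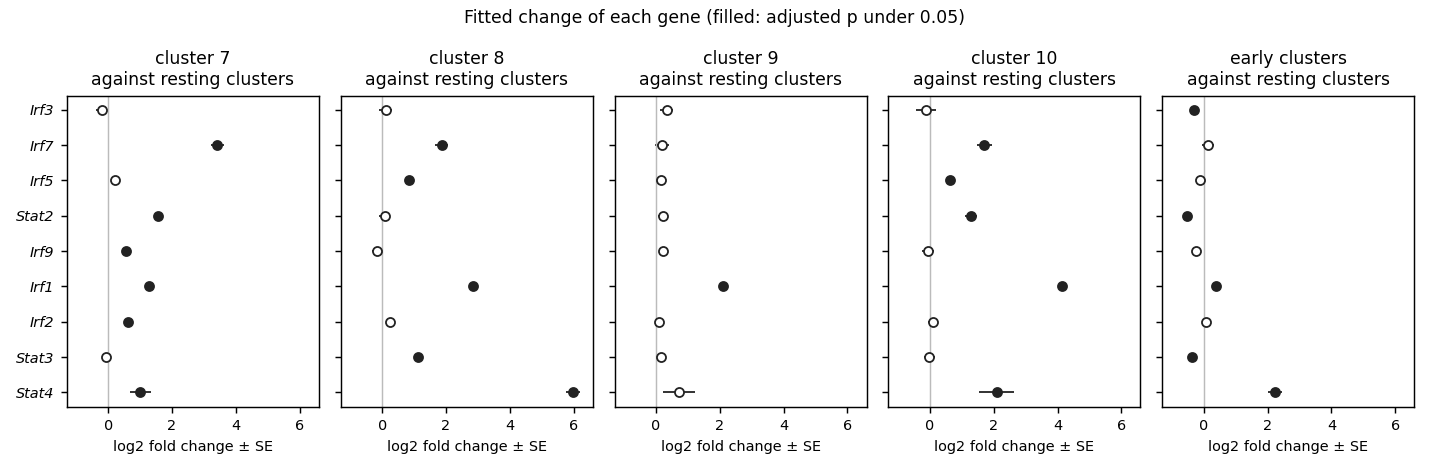
Log2 fold change of each member against the resting clusters from the edgeR fit, 1 panel per comparison, with bars of 1 standard error and filled points where the adjusted p is under 0.05. The largest values are Stat4 in cluster 8 (5.98), Irf1 in cluster 10 (4.14) and Irf7 in cluster 7 (3.42), and Irf3 ranges from -0.31 in the early clusters to 0.33 in cluster 9.

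A mean over a cluster does not show how the UMIs lie over its cells, so cells with 10 UMIs or more of a gene were counted, at median depths of 14254, 10867, 14033 and 11132 UMIs a cell in clusters 7, 8, 9 and 10. In cluster 7, 273 of 422 cells (64.7%) held 10 or more UMIs of Irf7 and 1 held none. In cluster 8, 32 of 255 cells (12.5%) did so and 149 held none, and those 32 cells held 78.4% of the cluster's Irf7 UMIs. In cluster 10, 6 of 76 cells (7.89%) did so, with 23.3% of the UMIs, and 13 held none. Clusters 8 and 10 had similar mean levels of Irf7, but in cluster 8 a few cells held most of it and in cluster 10 it was spread over most cells. The high cells of cluster 8 numbered 10 of 84 in WT, 19 of 114 in sGSN-/- and 3 of 57 in sGSN-/-Clec9a-/-. In cluster 9, 6 of 162 cells held 35.02% of the UMIs, 0 of them in WT, 3 in sGSN-/- and 3 in sGSN-/-Clec9a-/-.

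For Irf1, 22 of 76 cells of cluster 10 (28.9%) held 10 UMIs or more and 2 held none. The same count was 11 of 255 in cluster 8, 5 of 162 in cluster 9 and 3 of 422 in cluster 7. For Stat4, 51 of 255 cells of cluster 8 held 10 or more, with 57.9% of its UMIs, and 65 held none. Among clusters 7 to 10 the share of high cells of Irf1 was thus largest in cluster 10, and those of Stat4 lay in cluster 8 alone. Those Stat4 cells were 25 of 84 in WT, 22 of 114 in sGSN-/- and 4 of 57 in sGSN-/-Clec9a-/-.

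**Figure D3:**
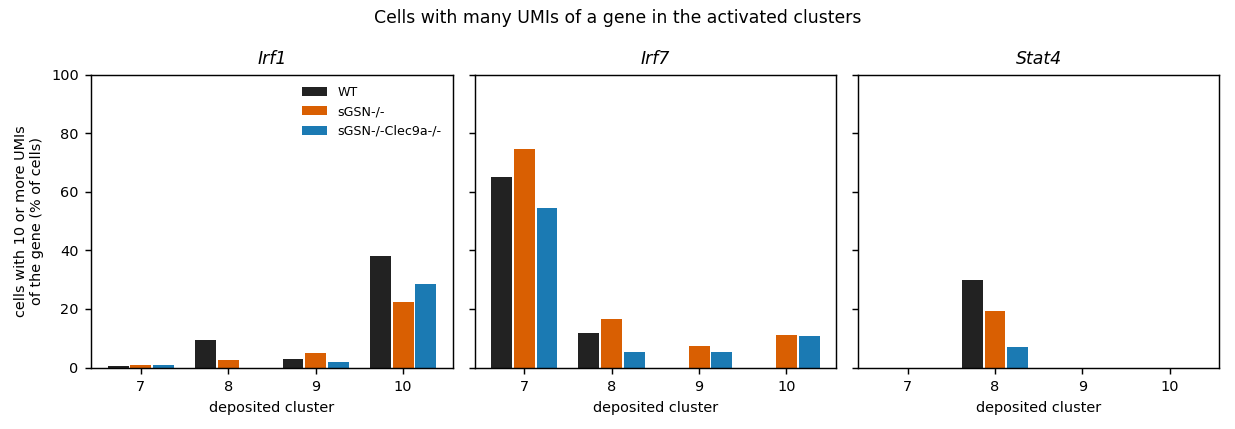
Share of cells (%, from 0) with 10 or more UMIs of Irf1, Irf7 or Stat4 in clusters 7, 8, 9 and 10, by library. For Irf7 the share in cluster 7 is 64.9% in WT, 74.6% in sGSN-/- and 54.5% in sGSN-/-Clec9a-/-, above the other clusters in each library, and for Stat4 it is above 0 in cluster 8 only.

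Cells thinned to 3930 UMIs each, the depth exceeded by all but the shallowest 5% of cDC1s, allow pairs of members to be counted in the same cell at equal depth. In cluster 8, of 198 such cells 36 held UMIs of both Irf1 and Irf7, 54 of Irf1 alone, 38 of Irf7 alone and 70 of neither. In cluster 10, of 70 cells 41 held both, 18 Irf1 alone, 7 Irf7 alone and 4 neither. In cluster 7, of 411 cells 81 held both, 3 Irf1 alone, 300 Irf7 alone and 27 neither. Most thinned cells of cluster 10 thus held both genes, while most thinned cells of cluster 7 held Irf7 without Irf1. Without thinning, 219 of 422 cells of cluster 7 held no UMI of Irf1. For Irf7 and Stat4 in cluster 8, 40 cells held both, 34 Irf7 alone, 81 Stat4 alone and 43 neither. For Irf1 and Stat4 there, 67 held both, 23 Irf1 alone, 54 Stat4 alone and 54 neither. For Irf7 and Stat2 in cluster 7, 196 held both, 185 Irf7 alone, 13 Stat2 alone and 17 neither. Many Stat4 cells of cluster 8 therefore lacked a UMI of Irf7. A UMI can be missed at this depth, so absence in a cell was not detectable.

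Free RNA can place a UMI in a cell that does not make it, so shares of cells with a UMI are given beside other barcodes of these libraries. For Stat4 the share in cluster 8 was 74.5% unthinned and 61.1% thinned, against 7.57% and 3.03% in resting clusters, at median depths of 10867 and 13930.0 UMIs. Barcodes with NK cell markers, which use STAT4, held Stat4 in 82.5% unthinned and 62.1% thinned (3540 barcodes, median depth 7349 UMIs). Barcodes with macrophage markers held it in 38.5% and 13.2% (4652 barcodes, median depth 16326). Pooled over libraries, cluster 8 was thus close to NK cells and far above resting cDC1s. By library its thinned shares were 64.3%, 69.05% and 40.9%, so the sGSN-/-Clec9a-/- cells lay below the NK cell share. Whether macrophages themselves make some Stat4 was not tested. The early clusters held Stat4 in 27.2% unthinned and 11.9% thinned, cluster 7 in 12.6% and 4.38%, cluster 9 in 9.88% and 4.43%, and cluster 10 in 23.7% and 8.57%. All of these lay below the macrophage shares. By library the thinned shares were 3.03%, 4.40% and 1.84% in resting clusters, 14.8%, 10.5% and 9.71% in the early clusters, 7.24%, 4.55% and 0.787% in cluster 7, 2.99%, 13.2% and 0% in cluster 9 and 10%, 7.69% and 8.33% in cluster 10. The early clusters and cluster 10 thus lay above resting cDC1s in each library, cluster 10 with few cells, and clusters 7 and 9 did not. For Irf7 and Irf1 no type of barcode here was taken to lack the gene. Irf7 was held by 99.8% of cluster 7 unthinned and 92.7% thinned, by 82.9% and 68.6% of cluster 10 and by 41.6% and 37.4% of cluster 8, against 57.8% and 29.8% of resting clusters. Macrophage barcodes gave 35.1% and 14.6% for Irf7, and NK cell barcodes 27.6% and 16.03%. Irf1 was held by 97.4% of cluster 10 unthinned and 84.3% thinned, against 28.7% and 12.5% of resting clusters and 46.4% and 26.9% of NK cell barcodes. Irf5, which NK cells should largely lack, was held by 15.7% of them unthinned and 8.21% thinned, against 74.1% and 59.6% of cluster 8 and 87.5% and 54.2% of resting clusters.

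Cells positive for NK1.1, Cd3e or CD88 had been gated out in the sort, and markers of other cell types were still summed in cluster 8, since NK cells hold Stat4. All 5 NK cell markers (Ncr1, Klrb1c, Klre1, Nkg7 and Gzma) were detected there, at 18.4, 134 and 38.8 CPM in the 3 libraries, with Gzma the most abundant (41.2 CPM). Of genes that macrophages express, Apoe stood at 256, 19.7 and 32.99 CPM in cluster 8 against 26.2, 19.5 and 22.3 CPM in resting clusters, and C1qa at 134, 5.51 and 5.82 CPM against 7.10, 4.83 and 5.53 CPM. Apoe and C1qa were thus high in the WT library and NK cell markers in the sGSN-/- library. The NK cell barcodes held 6173 CPM of the NK cell markers with 258 ± 23.9 CPM of Stat4, and cluster 8 held 434 ± 136 CPM. Whether admixed cells add to Stat4 in cluster 8 was tested only by leaving out mixed cells. The 5 T cell markers (Cd3d, Cd3e, Cd3g, Trac and Cd5) summed to 3.88, 13.4 and 1.94 CPM in cluster 8, led by Cd3g and Trac with 6 UMIs each. The 5 plasmacytoid dendritic cell markers (Siglech, Ccr9, Cox6a2, Klk1 and Pacsin1) summed to 6.78, 14.2 and 27.2 CPM, led by Pacsin1. The cDC2 markers summed to 88.2, 17.3 and 40.8 CPM, led by Mgl2. The cycling cell list (Mki67, Top2a, Birc5, Ube2c and Ccnb2) stood at 73.6, 96.8 and 15.5 CPM, led by Mki67. In cluster 9 that list stood at 68.2, 57.7 and 60.7 CPM, against 26.7, 35.2 and 22.2 CPM in resting clusters. Over all libraries, cluster 8 held 74.2 CPM of the NK cell list against 24.1 in resting clusters, 7.81 CPM of the T cell list against 2.61 in resting clusters, 47.6 CPM of the cDC2 list against 22.7 in resting clusters and 73.5 CPM of the cycling cell list against 27.8. The pooled sums of these 4 lists were thus higher in cluster 8 than in resting clusters. Of these 4 only the NK cell list was so in all 3 libraries, the cDC2 list being lower in sGSN-/- and the T cell and cycling cell lists in sGSN-/-Clec9a-/-. The plasmacytoid list was higher in its pooled sum (13.8 against 9.32 CPM) and lower in WT. The summed macrophage list was also higher than in resting clusters in all 3 libraries, most of all in WT. Cells with 2 or more markers of another type made up 14.9% of cluster 8 and 10.97% of resting clusters, and without them the 5 calls in cluster 8 stayed in place.

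Genes around the members in the pathway were read from 6 lists, each with its count of called genes in each direction, its median log2FC and up to 4 called genes of the largest log2FC. Of 14 listed type I interferon-stimulated genes 13 were in the matrices, Mx1 being absent, and the lists named for interferon hold Ifit2, Isg15, Isg20, Cxcl9 and Cxcl10, which the study names for these cells, so their counts are not independent evidence. In cluster 7 the median over all genes tested was -0.02. Of 13 type I interferon-stimulated genes, 13 were higher and 0 lower than in resting clusters (median 4.05), most of all Ifit3 (8.08), Ifit1 (6.18), Ifit2 (5.25) and Oasl1 (4.87). Among 14 target genes of interferon gamma and IRF1, 13 rose and 0 fell (median 2.74), most of all Iigp1 (7.58), Cxcl10 (5.37), Gbp5 (5.27) and Cxcl9 (5.09). Both groups of target genes were thus high in cluster 7, where Irf7, Stat2 and Irf1 rose. The 13 tested sensors and adaptors upstream of IRF3, IRF5 and IRF7 gave 4 higher and 0 lower (median 0.09), most of all Ddx58 (4.19), Cgas (1.06), 5430427O19Rik (Tasl) (0.88) and Myd88 (0.36). Of 7 interferon receptors and Janus kinases, 2 were higher and 1 lower (median 0.01), most of all Ifngr1 (-0.91), Ifnar1 (0.41) and Ifnar2 (0.29). Among 8 receptors and feedback genes of STAT3 and STAT4, 3 rose and 2 fell (median 0.20), most of all Il10ra (1.56), Il21r (1.13), Il10rb (0.79) and Il6st (-0.64). The medians of the last 3 lists were thus below those of the 2 lists of target genes, although Ddx58 reached 4.19. The difference between lists was not tested. Of all genes, 17.9% were called in cluster 7.

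In cluster 8 the median over all genes tested was -0.05. Of 13 interferon-stimulated genes, 11 were higher and 0 lower than in resting clusters (median 2.20), most of all Ifit3 (5.98), Ifit1 (5.17), Oasl1 (5.0) and Rsad2 (3.22). Among 14 interferon gamma and IRF1 targets, 8 rose and 1 fell (median 2.0), most of all Gbp2 (6.69), Gbp5 (6.13), Cxcl9 (5.09) and Cxcl10 (4.12). Fewer target genes were high than in cluster 7. The 8 tested STAT3 and STAT4 receptors and feedback genes gave 6 higher and 1 lower (median 1.10), most of all Il21r (4.14), Il12rb2 (3.61), Il6ra (-1.75) and Il10ra (1.30). Of 7 receptors and kinases, 4 were higher and 2 lower (median 0.53), most of all Jak2 (1.66), Ifngr1 (-1.55), Ifngr2 (0.87) and Jak1 (0.57). Among 13 sensors and adaptors, 4 rose and 5 fell (median -0.18), most of all Tlr3 (-2.82), Ddx58 (2.73), Traf3 (2.33) and Traf6 (1.87). Of all genes, 49.7% were called in cluster 8 and 25.7% were higher, and all 5 lists had a larger share of genes called in either direction. Il12rb2 and Il21r were higher there, and Il6ra and Tlr3 lower. In cluster 10 the median over all genes tested was -0.04. Of 14 interferon gamma and IRF1 targets, 10 were higher and 0 lower than in resting clusters (median 3.85), most of all Iigp1 (9.53), Cxcl10 (8.17), Cxcl9 (8.12) and Gbp5 (7.69). The 13 tested interferon-stimulated genes gave 10 higher and 0 lower (median 1.52), most of all Ifit1 (4.65), Oasl1 (4.11), Ifit3 (4.04) and Ifit2 (2.0). In cluster 10, unlike cluster 7, the target genes of interferon gamma and IRF1 had the larger median. Among 8 STAT3 and STAT4 receptors and feedback genes, 5 rose and 0 fell (median 1.65), most of all Il12rb2 (2.44), Il10ra (2.23), Bcl3 (1.76) and Il21r (1.68). The 7 tested receptors and kinases gave 1 higher and 2 lower (median -0.01), most of all Ifngr1 (-1.62), Tyk2 (-1.18) and Jak2 (1.07). Of 13 sensors and adaptors, 1 was higher and 2 lower (median 0.01), most of all Tlr3 (-2.21), 5430427O19Rik (Tasl) (1.27) and Unc93b1 (-0.52). Of all genes, 15.1% were called in cluster 10, so counts near that share are not read as a result about a list.

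In cluster 9 the median over all genes tested was -0.02, and 5.32% of them were called. None of the 13 type I interferon-stimulated genes and none of the 13 sensors and adaptors was called by edgeR (medians 0.29 and 0.09). Of 14 interferon gamma and IRF1 targets, 2 were higher and 0 lower than in resting clusters (median 0.22), most of all Cxcl10 (5.08) and Cxcl9 (4.25). Cluster 9 thus had a high Irf1 level with no called target gene on this list beside Cxcl9 and Cxcl10. Among 8 STAT3 and STAT4 receptors and feedback genes, 3 rose and 0 fell (median 0.35), most of all Il10ra (1.03), Bcl3 (0.76) and Socs3 (0.51). The 7 tested receptors and kinases gave 1 higher and 0 lower (median 0.01), most of all Jak2 (0.63). In the early clusters the median over all genes tested was -0.01. Of 13 interferon-stimulated genes, 3 were higher and 1 lower than in resting clusters (median 0.27), most of all Ifit3 (4.08), Ifit1 (2.13), Ifi44 (-1.04) and Rsad2 (0.76). Among 14 interferon gamma and IRF1 targets, 6 rose and 4 fell (median 0.19), most of all Iigp1 (3.64), Gbp2 (3.34), Cxcl10 (2.55) and Gbp5 (2.21). The 8 tested STAT3 and STAT4 receptors and feedback genes gave 3 higher and 0 lower (median 0.12), most of all Il12rb2 (1.23), Il21r (0.97) and Bcl3 (0.40). The first 2 lists held calls in both directions there, and the third had no lower call. Of all genes, 34.2% were called in the early clusters, so counts near that share are not read as a result about a list. Among 7 receptors and kinases, 2 rose and 1 fell (median 0.05), most of all Tyk2 (-0.90), Ifngr2 (0.59) and Ifnar2 (0.31). The 13 tested sensors and adaptors gave 1 higher and 4 lower (median -0.21), most of all Ddx58 (1.47), Ticam1 (-1.06), Myd88 (-0.71) and Tlr3 (-0.58).

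Between activated clusters the 2 groups of target genes had medians of opposite sign for 7 against 10 and 8 against 10. In the other comparisons their medians had the same sign. For cluster 7 against cluster 10, 11 of 13 interferon-stimulated genes were higher and 0 lower (median 2.20, 0.06 over all genes), most of all Ifit3 (4.04), Cmpk2 (3.27), Ifit2 (3.24) and Rsad2 (2.89). With 14 interferon gamma and IRF1 targets, 7 against 10 gave 1 higher and 8 lower (median -1.71), most of all Cxcl9 (-3.04), Cxcl10 (-2.80), Il15 (2.72) and Gbp5 (-2.42). The first group was thus higher in cluster 7 and the second in cluster 10, as Irf7 and Irf1 were. For cluster 7 against cluster 8, 12 of 13 interferon-stimulated genes were higher and 0 lower (median 1.62, 0.07 over all genes), most of all Cmpk2 (3.41), Ifi44 (3.22), Ifit2 (2.59) and Usp18 (2.16). With 14 interferon gamma and IRF1 targets, 7 against 8 gave 5 higher and 2 lower (median 0.15), most of all Iigp1 (4.15), Irgm1 (2.58), Igtp (1.96) and Gbp2 (-1.83). For cluster 7 against cluster 9, 13 of 13 interferon-stimulated genes were higher and 0 lower (median 3.47, 0.01 over all genes), most of all Ifit3 (5.52), Ifit1 (5.40), Ifit2 (4.69) and Isg15 (3.86). Cluster 7 was above both other clusters in the first group. With 14 interferon gamma and IRF1 targets, 7 against 9 gave 11 higher and 0 lower (median 1.43), most of all Iigp1 (5.96), Gbp5 (5.03), Gbp2 (3.12) and Irgm1 (2.90). For cluster 8 against cluster 10, 2 of 13 interferon-stimulated genes were higher and 0 lower (median 0.65, 0.02 over all genes), most of all Isg15 (1.11) and Oasl1 (0.89). With 14 interferon gamma and IRF1 targets, 8 against 10 gave 1 higher and 9 lower (median -1.84), most of all Iigp1 (-6.10), Cxcl10 (-4.05), Igtp (-3.43) and Cxcl9 (-3.03). Cluster 8 lay near cluster 10 in the first group and below it in the second. For cluster 8 against cluster 9, 11 of 13 interferon-stimulated genes were higher and 0 lower (median 1.58, -0.02 over all genes), most of all Ifit1 (4.40), Oasl1 (3.77), Ifit3 (3.42) and Isg15 (2.77). With 14 interferon gamma and IRF1 targets, 8 against 9 gave 9 higher and 1 lower (median 0.65), most of all Gbp5 (5.89), Gbp2 (4.95), Gbp3 (2.43) and Socs1 (1.83). By these medians cluster 9 was the lowest in both groups. For cluster 9 against cluster 10, 0 of 13 interferon-stimulated genes were higher and 6 lower (median -0.95, 0.02 over all genes), most of all Ifit1 (-3.87), Oasl1 (-2.88), Isg15 (-1.66) and Usp18 (-1.14). With 14 interferon gamma and IRF1 targets, 9 against 10 gave 0 higher and 12 lower (median -3.49), most of all Iigp1 (-7.91), Gbp5 (-7.45), Gbp2 (-5.36) and Gbp3 (-4.65).

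Receptors and feedback genes of STAT3 and STAT4 were compared next. Of 8 STAT3 and STAT4 receptors and feedback genes, 1 was higher and 5 lower in cluster 7 than in cluster 8 (median -0.99), most of all Il12rb2 (-3.09), Il21r (-3.01), Il6st (-1.67) and Il6ra (1.46). With 8 STAT3 and STAT4 receptors and feedback genes, 8 against 9 gave 3 higher and 1 lower (median 0.53), most of all Il21r (4.36), Il12rb2 (2.49), Il6ra (-1.76) and Il6st (1.05). Of all genes, 45.5% and 36.9% were called in these 2 comparisons, so the counts are not read as a result about the list. Of 8 STAT3 and STAT4 receptors and feedback genes, 2 were higher and 4 lower in cluster 8 than in cluster 10 (median 0.09), most of all Il21r (2.46), Socs3 (-1.55), Il6ra (-1.35) and Il6st (1.23). With 8 STAT3 and STAT4 receptors and feedback genes, 7 against 10 gave 0 higher and 3 lower (median -0.61), most of all Socs3 (-2.24), Bcl3 (-1.88) and Il10ra (-0.67). Of 8 STAT3 and STAT4 receptors and feedback genes, 0 were higher and 4 lower in cluster 9 than in cluster 10 (median -1.05), most of all Il21r (-1.90), Il10ra (-1.20), Socs3 (-1.10) and Bcl3 (-1.0). Clusters 7 and 9 were below cluster 10 in the called genes, and clusters 8 and 10 differed in both directions. With 8 STAT3 and STAT4 receptors and feedback genes, 7 against 9 gave 2 higher and 2 lower (median -0.45), most of all Il21r (1.35), Socs3 (-1.14), Bcl3 (-0.88) and Il10ra (0.52).

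Sensors and adaptors of the IRF3, IRF5 and IRF7 branch had most calls where cluster 8 was compared, and so had genes at large (45.5%, 36.9% and 28.2% called, against 18.9% for 7 against 9, 15.0% for 9 against 10 and 9.83% for 7 against 10), so these counts are not read as a result about the list. The medians over all genes are those given above. Of 13 sensors and adaptors, 3 were higher and 0 lower in cluster 7 than in cluster 10 (median 0.16), most of all Ddx58 (2.80), Tlr3 (2.48) and Unc93b1 (0.60). With 13 sensors and adaptors, 7 against 9 gave 3 higher and 0 lower (median 0.18), most of all Ddx58 (4.10), Cgas (1.21) and Tlr3 (0.45). Of 13 sensors and adaptors, 7 were higher and 3 lower in cluster 7 than in cluster 8 (median 0.60), most of all Tlr3 (3.09), Traf3 (-2.60), Cgas (2.31) and Myd88 (1.88). Tlr3 was higher in cluster 7 than in each other activated cluster. With 13 sensors and adaptors, 8 against 10 gave 2 higher and 5 lower (median 0.13), most of all Traf6 (2.63), Cgas (-2.14), Myd88 (-1.49) and 5430427O19Rik (Tasl) (-1.45). Of 13 sensors and adaptors, 3 were higher and 4 lower in cluster 8 than in cluster 9 (median -0.24), most of all Tlr3 (-2.64), Ddx58 (2.64), Traf3 (1.85) and Traf6 (1.84). With 13 sensors and adaptors, 9 against 10 gave 2 higher and 1 lower (median 0.20), most of all Tlr3 (2.03), Tmem173 (-0.71) and Unc93b1 (0.44). Receptors and kinases are read in the same way, against the same shares. With 7 receptors and kinases, 7 against 10 gave 0 higher and 1 lower (median 0.30), most of all Jak2 (-0.82). Of 7 receptors and kinases, 1 was higher and 2 lower in cluster 7 than in cluster 9 (median -0.36), most of all Ifngr1 (-0.72), Ifnar2 (0.61) and Jak2 (-0.38). With 7 receptors and kinases, 7 against 8 gave 2 higher and 3 lower (median -0.12), most of all Jak2 (-1.41), Ifngr2 (-0.87), Ifnar2 (0.64) and Ifngr1 (0.64). Jak2 was lower in cluster 7 than in each other activated cluster. Of 7 receptors and kinases, 4 were higher and 0 lower in cluster 8 than in cluster 10 (median 0.49), most of all Tyk2 (0.88), Ifnar1 (0.64), Jak2 (0.59) and Jak1 (0.49). With 7 receptors and kinases, 8 against 9 gave 3 higher and 1 lower (median 0.19), most of all Ifngr1 (-1.36), Jak2 (1.03), Ifngr2 (0.93) and Ifnar1 (0.52). Of 7 receptors and kinases, 2 were higher and 1 lower in cluster 9 than in cluster 10 (median 0.12), most of all Ifngr1 (1.43), Tyk2 (1.32) and Jak2 (-0.44).

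Of the 7 ligands listed (Ifnb1, Ifna1, Ifna2, Ifna4, Ifnl2, Ifnl3 and Ifng), none passed the filter on low counts, so none was tested. Over all cDC1s Ifnb1 had 14 UMIs, Ifnl2 63, Ifnl3 36 and Ifng 48. Ifna1, Ifna2 and Ifna4 had 0 UMIs of 77712774, which allows up to 3 counts each. Interferon transcripts were thus close to the limit of detection in cDC1s, while the other barcodes held 9251 Ifng UMIs, 6581 of them in NK cell barcodes.

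The second question is whether the members differ between genotypes. With 1 library each, no test is possible, so the 95% Poisson intervals in brackets cover counting error alone, and genotype, pool and library cannot be told apart. Over all cDC1s Stat4 stood at 33.8 CPM (31.9 to 35.9) in WT, 44.1 CPM (41.5 to 46.9) in sGSN-/- and 18.9 CPM (17.1 to 20.8) in sGSN-/-Clec9a-/-. Irf7 stood at 189 CPM (184 to 194) in WT, 246 CPM (239.9 to 253) in sGSN-/- and 199 CPM (193 to 205) in sGSN-/-Clec9a-/-. Stat4 was lowest in sGSN-/-Clec9a-/- and Irf7 highest in sGSN-/-, with intervals that did not overlap those of the other libraries. Between sGSN-/- and WT, 0 of 9 members were past 1.5-fold, where 0.647% of the genes at 20 CPM or more were. Between sGSN-/-Clec9a-/- and sGSN-/-, 1 of 9 was (1.31% of genes), and between sGSN-/-Clec9a-/- and WT, 1 of 9 (1.12% of genes). That gene was Stat4 in both, with log2 ratios of -1.23 (-1.39 to -1.06) against sGSN-/- and -0.84 (-1.01 to -0.68) against WT.

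The share of cells in each cluster bears on such ratios, since cluster 8, where Stat4 is high, held 84 of the WT, 114 of the sGSN-/- and 57 of the sGSN-/-Clec9a-/- cDC1s. With the clusters weighted equally the Stat4 ratio against sGSN-/- was -0.65 and that against WT -0.79, and in the resting clusters alone they were -0.74 (-1.16 to -0.33) and -0.55 (-0.95 to -0.16). Within cluster 8 they were -0.85 (-1.13 to -0.59) and -0.91 (-1.19 to -0.65). The ratio against sGSN-/- thus shrank when the makeup was evened out, and sGSN-/-Clec9a-/- stayed the lowest under each weighting. It was not the lowest in every single cluster. In cluster 10 the ratio against sGSN-/- was 1.51 (-0.24 to 3.62), and in cluster 4 the libraries held 36.1, 25.8 and 37.96 CPM. Of sGSN-/- against WT, the Stat4 ratio was 0.38 (0.26 to 0.51) over all cDC1s and -0.14 with clusters weighted equally, so its sign depended on the weighting. For Irf7, sGSN-/- against WT gave 0.38 (0.33 to 0.44) over all cDC1s, -0.02 (-0.12 to 0.07) in resting clusters, 0.28 (0.20 to 0.36) in cluster 7, 0.48 (0.29 to 0.67) in cluster 8, 1.31 (0.88 to 1.74) in cluster 9 and -0.04 (-0.45 to 0.38) in cluster 10. Irf7 was higher in the sGSN-/- library in clusters 7, 8 and 9 and not in resting cells or cluster 10. For sGSN-/-Clec9a-/- against sGSN-/- the Irf7 ratio was -0.31 (-0.37 to -0.25) over all cDC1s, 0.06 (-0.04 to 0.16) in resting clusters, -0.32 (-0.41 to -0.24) in cluster 7 and -1.23 (-1.54 to -0.94) in cluster 8. In cluster 9 it was -0.55 (-0.97 to -0.13) and in cluster 10, with the other sign, 0.37 (-0.02 to 0.75).

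The other 7 members varied little over all cDC1s. Their log2 ratios ran from -0.15 (Irf2) to 0.11 (Irf5) for sGSN-/- against WT, and from -0.17 (Stat2) to 0.16 (Irf3) for sGSN-/-Clec9a-/- against sGSN-/-. For sGSN-/-Clec9a-/- against WT they ran from -0.23 (Stat2) to 0.01 (Irf3 and Irf5). The median absolute log2 ratio over all genes compared was 0.08, 0.10 and 0.10. Most of these members lay above that median in each comparison, though none was past 1.5-fold. Within cluster 8, Stat3 stood at -0.58 (-0.92 to -0.24) and Stat2 at -1.01 (-1.74 to -0.34) for sGSN-/-Clec9a-/- against sGSN-/-. Irf1 in cluster 8 stood at -0.65 (-1.01 to -0.30) for sGSN-/-Clec9a-/- against WT, and in cluster 10 the sGSN-/- library stood at -0.31 (-0.60 to -0.02) against WT. These ratios in single clusters were not set against those of all genes, and in cluster 8 the sGSN-/-Clec9a-/- library had the fewest cells.

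The genes whose pattern was most like that of each member were sought over 33 sums, 11 clusters in 3 libraries, by Pearson's r of log2(CPM + 1) among 4696 genes at a mean of 20 CPM or more. The sums share libraries, mice and depth, so r is a description. It was done for the 5 members whose cluster means spanned at least 2-fold. The genes most like Irf7 were Isg15 (0.959), Herc6 (0.938) and Xaf1 (0.932). The genes most like Stat2 were Slfn5 (0.902), Eif2ak2 (0.884) and Trim30a (0.865), and those most like Irf1 were Casp4 (0.918), Cxcl9 (0.906) and Bcl3 (0.873). Isg15 and Cxcl9 are among the genes that the study names. Stat4 was most like Ptafr (0.906), Lgmn (0.906) and Arl5c (0.897), and Stat3 was most like Ddx6 (0.903), Akap13 (0.899) and Nfat5 (0.896). The 5 members thus had no gene in common among these, and between members the highest r were 0.729 for Irf1 with Irf5, 0.685 for Irf9 with Stat2 and 0.640 for Irf7 with Stat2. The lowest was -0.399 for Irf9 with Stat4.

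Several members are themselves targets of the pathway, so their promoters (250 bases before to 50 after the start, RefSeq, GRCm38.p6) were searched on both strands for GAAANNGAA, the core of an interferon-stimulated response element, and for TTCNNNGAA, a gamma-activated site. Of 32851 promoters, 8.56% held the first and 8.30% the second, and by gene these shares were 9.76% and 9.55% of 27025. All 9 members were matched by symbol. The first was found in 3 of 9 (Irf2, Stat2 and Stat4) and the second in 2 of 9 (Irf1 and Irf2). Of the type I interferon-stimulated genes 7 of 12 with a promoter in the table held the first and 3 of 12 the second, and of the target genes of interferon gamma and IRF1 these were 8 of 11 and 3 of 11, lists that hold genes the study names. A match is a description of these letters, and its absence says only that they are not in this window. Printed below, 5′ to 3′ on the strand of the gene, are 1 promoter each of the 3 members with the largest changes (Irf1, Irf7 and Stat4) and of the other members with a match, in lower case with matches in capitals. That of Irf7 holds neither motif, and in that of Stat2 the match lies on the opposite strand. The other listed start of Irf1 and that of Stat4 held no match.
Irf1, chr11:53769764-53770063, plus strand: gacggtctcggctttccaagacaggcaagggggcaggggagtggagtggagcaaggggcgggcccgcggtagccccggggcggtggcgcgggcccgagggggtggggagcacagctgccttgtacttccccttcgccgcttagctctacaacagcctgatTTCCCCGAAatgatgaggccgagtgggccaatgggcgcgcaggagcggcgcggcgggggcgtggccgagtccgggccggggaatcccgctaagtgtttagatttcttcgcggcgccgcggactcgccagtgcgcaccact
Irf2, chr8:46739495-46739794, plus strand: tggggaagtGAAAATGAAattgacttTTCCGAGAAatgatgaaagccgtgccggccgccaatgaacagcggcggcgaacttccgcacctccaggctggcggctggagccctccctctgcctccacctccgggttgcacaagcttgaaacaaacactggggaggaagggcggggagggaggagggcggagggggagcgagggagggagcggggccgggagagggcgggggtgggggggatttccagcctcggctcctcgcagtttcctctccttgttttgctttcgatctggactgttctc
Irf7, chr7:141266375-141266674, minus strand: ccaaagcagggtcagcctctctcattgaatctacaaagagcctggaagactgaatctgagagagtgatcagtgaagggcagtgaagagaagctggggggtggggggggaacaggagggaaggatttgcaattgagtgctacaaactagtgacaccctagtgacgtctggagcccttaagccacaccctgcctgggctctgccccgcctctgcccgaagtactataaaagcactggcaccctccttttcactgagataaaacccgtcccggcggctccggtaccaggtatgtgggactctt
Stat2, chr10:128270248-128270547, plus strand: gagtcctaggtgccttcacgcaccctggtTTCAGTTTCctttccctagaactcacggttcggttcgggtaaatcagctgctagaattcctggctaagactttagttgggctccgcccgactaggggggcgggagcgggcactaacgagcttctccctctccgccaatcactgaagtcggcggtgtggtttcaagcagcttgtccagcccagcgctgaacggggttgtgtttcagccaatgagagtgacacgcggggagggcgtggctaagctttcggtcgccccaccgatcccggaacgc
Stat4, chr1:52007990-52008289, plus strand: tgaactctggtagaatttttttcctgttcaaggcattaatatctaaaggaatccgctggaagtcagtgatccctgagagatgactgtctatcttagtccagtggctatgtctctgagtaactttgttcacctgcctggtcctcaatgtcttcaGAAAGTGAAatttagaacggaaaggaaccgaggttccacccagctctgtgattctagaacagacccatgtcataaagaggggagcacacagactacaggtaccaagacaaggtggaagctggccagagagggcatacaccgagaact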

How the data were processed

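What the authors deposited is, per library, a matrix of raw UMIs (Cell Ranger 6.0.1, mm10, no normalisation), and 1 table of cDC1s giving library, cluster and UMI count. The deposited table also holds UMAP coordinates, a score without units, which were not used. The authors clustered integrated data with Seurat; the counts used here precede that integration. Of 5806 UMI counts in it 4559 equalled the matrix sums, and the others differed by at most 34. The members and lists were chosen with earlier results of these data known. UMIs were summed per library and group (18 sums, 6 groups) and fitted once with edgeR 4.0.16 in R 4.3.3 (filterByExpr, TMM factors, quasi-likelihood F-test, two-sided, Benjamini-Hochberg at 0.05), with standard errors of the absolute log2FC over the square root of F. Named genes were all members, up to 4 called genes of each list with the largest absolute log2FC, and the 3 genes most like each member that spans 2-fold. Sums of 1 library come from 1 pool of mice. Correlated with each other after subtraction of group means, they gave r between 0.0296 and 0.384 against resting clusters and between -0.0025 and 0.0859 between activated ones. Alternatives were DESeq2 1.42.0, no TMM factors, no filter, the library as a block, each library left out, cells thinned to 3930 UMIs (291 cells left out), and 646 mixed cells (2 or more of 5 markers of an NK cell, T cell, plasmacytoid dendritic cell or macrophage list) left out. Other barcodes were typed by 3 or more of 5 markers of 1 of these lists and at most 1 of each other list. Summed levels of macrophage and pre-cDC markers are not reported here. Poisson intervals are exact, at 95%, for counting error only. Python 3.11.15 was used for the rest. Positions are from GENCODE M21 on GRCm38.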

Additional observations from a re-analysis of the deposited data

Results flagged for a closer look

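For Irf7, 2 contrasts pointed in opposite directions in different libraries, with 95% Poisson intervals of the ratio that did not include 0 on the log2 scale. The difference between libraries was not tested in either, since each genotype has 1 library. Cluster 9 against resting clusters gave a log2 ratio of 0.80 in the sGSN-/- library and -0.54 in the WT library, at 77.8, 193 and 132 CPM in cluster 9 of WT, sGSN-/- and sGSN-/-Clec9a-/-. For cluster 8 against cluster 10 the log2 ratio was 0.56 with sGSN-/- cells and -1.04 with sGSN-/-Clec9a-/- cells. In both contrasts the sGSN-/- library was the higher one, and cells with 10 or more Irf7 UMIs numbered 0 of 67 WT and 3 of 40 sGSN-/- cells in cluster 9. Why the libraries differ was not tested.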

How the results depend on the processing

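Over 11 comparisons and 9 alternatives, the number of members called stayed within 1.5 times the reported number in 89 cases and moved past that in 10. With cells thinned, cluster 10 against resting had 3 members called in place of 5. Cluster 7 against cluster 10 had 3 in place of 5 with DESeq2, 3 without TMM factors, 2 with thinned cells and 3 without mixed cells, and 2 whichever library was left out. For the early clusters against resting, leaving out 1 library gave 2 to 4 in place of 5. The cause was not tested. Of the log2 fold changes, 828 stayed called or stayed uncalled, 52 lost a call, 11 gained one, and no called value reversed. Beside the 2 gains named for Irf5 and Irf9, the library as a block changed no other call. Of the genotype ratios, 61 moved within their counting interval and 20 beyond it. Thinning gave fewer genes called in all 11 comparisons: 789 of 1525 (cluster 7 against resting), 2397 of 4242 (cluster 8 against resting), 230 of 454 (cluster 9 against resting), 574 of 1285 (cluster 10 against resting), 1864 of 2919 (early against resting), 366 of 839 (7 against 10), 1265 of 2408 (8 against 10), 1664 of 3153 (8 against 9), 728 of 1615 (7 against 9), 2173 of 3881 (7 against 8) and 486 of 1280 (9 against 10). Thinned sums hold fewer UMIs. When 1 library is left out each group keeps 2 sums, and the fit pools the spread over groups.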

Other observations

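In cluster 8, 1 sGSN-/- cell of 20389 UMIs, not mixed by its markers, held 60 of the 63 Ifnl2 UMIs, 34 of the 36 Ifnl3 UMIs and 8 of the 14 Ifnb1 UMIs of all cDC1s, with 40 UMIs of Irf7 and 8 of Stat4. In cluster 9, 1 WT cell held the other 6 Ifnb1 UMIs, with 1 UMI of Irf7 and 9 of Irf1. The counts are of mRNA, and phosphorylation or location of these proteins was not measured. Cluster 10 rests on 76 cells and 891318 UMIs, so small changes of Irf3, Irf9 and Stat4 there were not detectable at this depth.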
